A study of Mus musculus with 5 samples.

Results

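The genes described here are 3 ligands of the TGF-beta superfamily (Tgfb2, Tgfb3 and Inhba), the SMAD corepressor gene Skil, the thrombospondin genes Thbs1 and Thbs2, and the contractile gene Myl9, in mouse mesenchymal stem cells (MSC). They were taken by gene name: every probe set that the array's annotation gives to 1 of these 7 genes was used, which gave 11 of the 3373 probe sets in the deposited table. A probe set is a group of short array probes read together as 1 value for a transcript. A further probe set, annotated to both Thbs1 and Pald1, is shown beside them but is not counted as theirs.

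Primary cultures of MSC from mouse bone marrow were measured on 5 single-colour arrays, in 2 groups. The co-culture group (n = 2) was kept for 48 h in a transwell with purified T cells activated in vitro through CD3 and CD28 (10 T cells to each MSC), and MSC alone (n = 3) was the naive culture. The membrane keeps the 2 cell populations apart while secreted products can pass. The labels call each array a biological repetition and give no strain, age or sex of the mice, and no genotype. All 5 arrays come from cells grown in the same medium, Mesencult.

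TGF-beta ligands are secreted in a latent complex that is stored in the extracellular matrix and has to be opened before it can bind its receptors. The receptors phosphorylate SMAD transcription factors, which switch on matrix and contractile genes and also genes that restrain the pathway. In marrow stromal cells the pathway is known for matrix production and for restraint of T cell responses.

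The deposited table is not a whole array, and this limits every count below. In all 3373 probe sets the co-culture arrays lay above, or below, every array of MSC alone, by at least 0.34 on the log2 scale, so its rows appear to have been chosen for a difference between these groups. The rule of that choice is not stated in the labels. Other probe sets of a gene may have been left out by it. The number and agreement of a gene's probe sets below therefore refer to the table, not to the whole array. The share of its probe sets called at an adjusted p under 0.05 (limma, Benjamini-Hochberg) was 100%, of which 51.3% of the table were lower and 48.7% higher in co-culture. A call of a member therefore adds nothing to its presence in the table, and the direction and size are what can be read. No T cell marker (0 of 22 listed), endothelial marker (0 of 12) or adipocyte and osteoblast marker (0 of 14) was in the table. Of 20 macrophage and monocyte markers 2 were, and both were higher in co-culture, Mpeg1 at 9.44 and 8.81 against 4.40, 4.82 and 4.71 in MSC alone, and Ctss at 6.62 and 5.89 against 3.08, 3.65 and 3.36 (log2 values). Of 20 marrow MSC markers 6 were in the table, 3 higher (Pdgfra, Vcam1 and Kitl) and 3 lower (Cxcl12, Pdgfrb and Cd44). The part of any other cell in the results was not tested. In bulk RNA, fewer cells of a type and less RNA per cell cannot be told apart.

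All 6 genes for ligands, thrombospondins and Myl9 were lower in co-cultured MSC, and Skil was higher. The range was wide, from 4.26-fold lower for the brightest Tgfb2 probe set to 32.9-fold lower for Thbs2. The median difference of the 6 lower genes was -2.74 on the log2 scale (brightest probe set of each), beside -1.22 for all 1133 genes of the table that were lower. Of the 11 probe sets 10 differed at least 4-fold, and the share of the whole table that did so was 16%. At least 2-fold were 11 of 11, and 62.7% of the table. These counts are a description, since the genes were chosen with the data known.

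**Figure D1:**
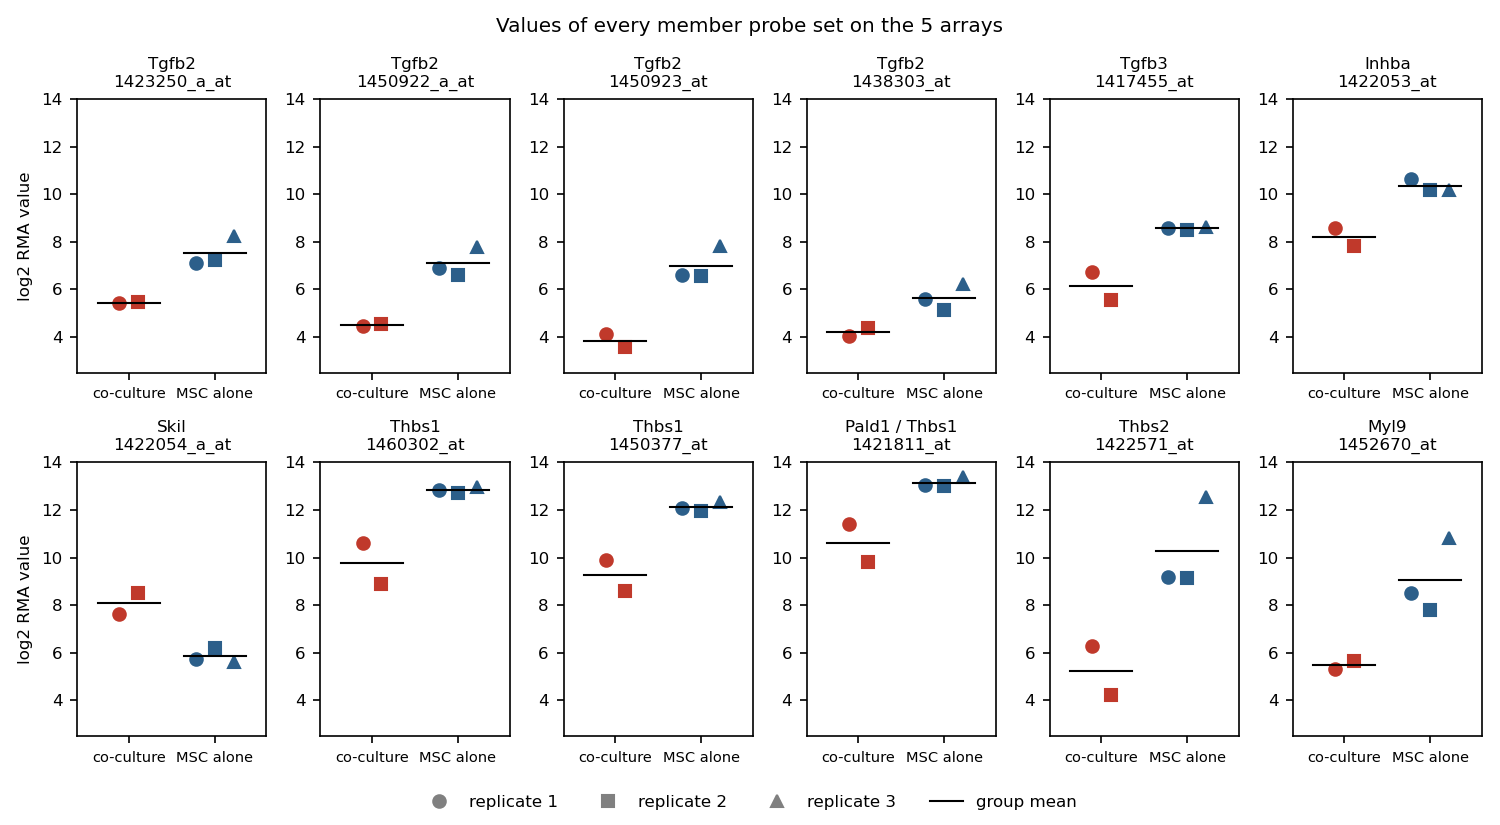
Deposited log2 RMA values (vertical axis) of the 11 member probe sets and of the probe set shared with Pald1 on the 2 co-culture arrays (left, red) and the 3 arrays of MSC alone (right, blue). Each symbol is 1 array and the black line is the group mean; Skil is the panel in which co-culture lies above MSC alone.

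Promoters of the members are shown where the RefSeq promoter table (build GRCm38.p6) holds them, which was for 4 of the 7 genes. Each window runs from 250 bases before a transcript start to 50 after it, 5′ to 3′ on the gene's strand. Capitals mark matches to 5 motifs searched on both strands: the SMAD motif CAGAC, the AP-1 site TGANTCA, the TEAD site GGAATG, the GAS element bound by STAT factors, and the CArG box bound by serum response factor. The windows are chr1:186705940-186706239 on the minus strand for Tgfb2, chr13:16011601-16011900 on the plus strand for Inhba, chr17:14694213-14694512 on the minus strand for Thbs2 and chr2:156775214-156775513 on the plus strand for Myl9.
Tgfb2: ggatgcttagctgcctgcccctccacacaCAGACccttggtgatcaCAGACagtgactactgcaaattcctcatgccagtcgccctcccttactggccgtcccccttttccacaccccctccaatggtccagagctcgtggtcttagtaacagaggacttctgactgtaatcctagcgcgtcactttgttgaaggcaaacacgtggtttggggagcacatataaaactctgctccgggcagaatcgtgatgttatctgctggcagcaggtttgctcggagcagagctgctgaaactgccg
Inhba: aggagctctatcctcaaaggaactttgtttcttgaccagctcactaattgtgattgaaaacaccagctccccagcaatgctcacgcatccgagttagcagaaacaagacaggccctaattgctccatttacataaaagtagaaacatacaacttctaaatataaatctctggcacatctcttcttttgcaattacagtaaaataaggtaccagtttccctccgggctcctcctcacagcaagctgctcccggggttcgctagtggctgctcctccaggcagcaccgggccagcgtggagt
Thbs2: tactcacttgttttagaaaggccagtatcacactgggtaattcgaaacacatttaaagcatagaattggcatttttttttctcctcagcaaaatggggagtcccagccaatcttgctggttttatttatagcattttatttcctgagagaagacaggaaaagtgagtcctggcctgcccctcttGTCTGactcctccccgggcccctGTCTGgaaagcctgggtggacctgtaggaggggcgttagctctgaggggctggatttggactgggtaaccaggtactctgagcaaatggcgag
Myl9: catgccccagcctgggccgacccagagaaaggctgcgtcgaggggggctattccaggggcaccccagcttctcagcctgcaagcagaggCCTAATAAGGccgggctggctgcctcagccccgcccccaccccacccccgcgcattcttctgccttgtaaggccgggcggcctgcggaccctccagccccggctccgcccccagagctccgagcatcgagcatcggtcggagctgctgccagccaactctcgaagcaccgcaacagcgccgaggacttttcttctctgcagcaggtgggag
The Tgfb2 window held 2 SMAD motifs, at bases -221 to -217 and -204 to -200 from the start. The Thbs2 window also held 2, both read on the opposite strand, at -66 to -62 and -43 to -39. The Myl9 window held a CArG box at -161 to -152, and the Inhba window held none of the 5 motifs. No match overlapped another. Of 32851 promoters of the same length 49.6% hold a SMAD motif and 1.63% a CArG box, so the SMAD motif is common and the CArG box is not. The AP-1, TEAD and GAS motifs, in 7.81%, 14.7% and 8.3% of all promoters, were in none of the 4 windows. These are matches of letters and say nothing of binding.

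Tgfb2, encoding the ligand TGF-beta2, had 4 probe sets in the table, and all 4 were lower in co-culture. The brightest, 1423250_a_at, read 5.43 and 5.46 in co-culture, against 7.11, 7.24 and 8.26 in MSC alone. The co-culture arrays were almost equal, and MSC replicate 3 stood above the other MSC arrays. The difference was -2.09 ± 0.37 on the log2 scale (SE; 4.26-fold lower, limma adjusted p 0.00478). Probe set 1450922_a_at read 4.47 and 4.54 in co-culture, against 6.92, 6.63 and 7.79 in MSC alone, a difference of -2.61 ± 0.36 (SE). Probe set 1450923_at read 4.13 and 3.57 in co-culture, against 6.59, 6.57 and 7.83 in MSC alone, a difference of -3.15 ± 0.43 (SE). The dimmest, 1438303_at, read 4.04 and 4.37 in co-culture, against 5.59, 5.15 and 6.23 in MSC alone, a difference of -1.45 ± 0.34 (SE). The gene's fall thus ranged from 2.74-fold to 8.86-fold by probe set, while replicate 3 was the highest array of MSC alone in 4 of 4. Values near 4 lie close to the lowest value of the table, 2.62, and carry no detection call, so the size of the fall in the dimmer probe sets is uncertain.

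Tgfb3, encoding TGF-beta3, read 6.73 and 5.57 in co-culture, against 8.59, 8.49 and 8.61 in MSC alone. Here the arrays of MSC alone agreed within 0.11 and the co-culture arrays lay 1.16 apart, the reverse of the brightest Tgfb2 probe set. The difference was -2.41 ± 0.34 (SE; 5.33-fold lower, limma adjusted p 0.00329). Inhba, encoding the beta A subunit that forms activin A, read 8.56 and 7.84 in co-culture, against 10.66, 10.19 and 10.16 in MSC alone. MSC replicate 3 was the lowest of its group for this gene. The difference was -2.14 ± 0.29 (SE; 4.40-fold lower, limma adjusted p 0.00292).

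Skil encodes SnoN, a corepressor that binds SMAD proteins and is itself a TGF-beta-induced feedback gene. It read 7.64 and 8.53 in co-culture, against 5.74, 6.19 and 5.62 in MSC alone. The groups were separated by 1.44, and co-culture replicate 2 was the higher of its pair. The difference was 2.23 ± 0.33 (SE; 4.70-fold higher, limma adjusted p 0.00336). Its single probe set in the table carries the suffix _a_at, which marks probes shared by several transcripts of a gene.

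Thbs1 encodes thrombospondin-1, a matrix glycoprotein that can activate latent TGF-beta. Its probe set 1460302_at read 10.6 and 8.91 in co-culture, against 12.9, 12.7 and 12.9 in MSC alone. The MSC arrays agreed within 0.25, and co-culture replicate 2 lay 1.71 below replicate 1. The difference was -3.07 ± 0.48 (SE; 8.39-fold lower, limma adjusted p 0.00381). It was 15.2-fold lower without co-culture replicate 1 and 4.64-fold lower without co-culture replicate 2. Probe set 1450377_at read 9.90 and 8.61 in co-culture, against 12.1, 11.9 and 12.3 in MSC alone, a difference of -2.87 ± 0.39 (SE). It was 11.5-fold lower without co-culture replicate 1 and 4.68-fold lower without replicate 2. The probe set annotated to both Thbs1 and Pald1, 1421811_at, read 11.4 and 9.81 in co-culture, against 13.0, 13.0 and 13.4 in MSC alone. All 3 probe sets put the 5 arrays in the same order. The difference of this one was -2.52 ± 0.47 (SE), or 10.1-fold lower without co-culture replicate 1 and 3.28-fold lower without replicate 2.

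Thbs2 encodes thrombospondin-2, a relative of thrombospondin-1 known for regulating collagen matrix and restraining vessel growth. It read 6.28 and 4.23 in co-culture, against 9.19, 9.14 and 12.6 in MSC alone. Both groups were spread out: MSC replicate 3 lay 3.40 above the mean of the other MSC arrays, and co-culture replicate 2 lay 2.04 below replicate 1. The difference was -5.04 ± 1.17 (SE), with a 95% interval from -7.88 to -2.20 and a limma adjusted p of 0.00773. This 32.9-fold difference ranked 6 of the 1133 genes lower in co-culture. It was 66.9-fold without co-culture replicate 1 and 16.2-fold without co-culture replicate 2. The value of co-culture replicate 2, 4.23, lies close to the lowest value of the table, 2.62. The sizes of the 32.9-fold and 66.9-fold differences are thus uncertain. Without MSC replicate 3 the difference was -3.91 on the log2 scale. Without moderation of the spread its adjusted p in limma's linear model was 0.0555, where 97.3% of the table passed.

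Myl9 encodes a regulatory light chain of smooth muscle and non-muscle myosin, whose phosphorylation starts contraction. It read 5.32 and 5.67 in co-culture, against 8.51, 7.79 and 10.8 in MSC alone. MSC replicate 3 lay 2.67 above the mean of the other MSC arrays, while the co-culture arrays lay 0.35 apart. The difference was -3.55 ± 0.84 (SE; 11.7-fold lower, limma adjusted p 0.00813), with a 95% interval from -5.60 to -1.49. It was 6.31-fold lower without MSC replicate 3 and 18.0-fold lower without MSC replicate 2. Without moderation of the spread its adjusted p in limma's linear model was 0.0581.

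**Figure D2:**
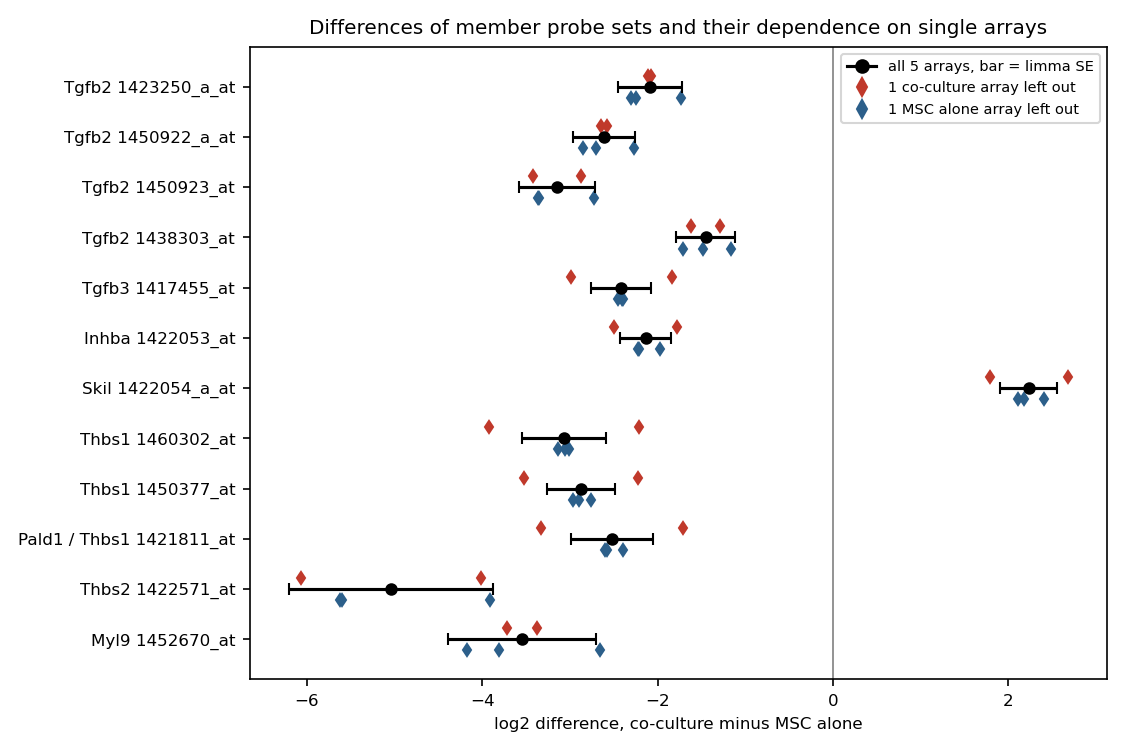
Log2 difference of co-culture minus MSC alone (horizontal axis) for each member probe set and the probe set shared with Pald1. Black circles use all 5 arrays with limma's standard error as the bar, red diamonds leave out 1 co-culture array and blue diamonds 1 array of MSC alone; the red diamonds lie farthest apart for Thbs2 and Thbs1, the blue ones for Thbs2 and Myl9, and none crosses 0.

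When p-values were adjusted over 15 times the number of probe sets, to stand in for a whole array, 5 of the 11 member probe sets passed, against 12.3% of the table. These were 1450922_a_at and 1450923_at of Tgfb2, the probe sets of Tgfb3 and Inhba, and 1450377_at of Thbs1. Thbs2 and Myl9, with the largest differences, did not pass (limma adjusted p 0.116 and 0.122), and Skil was at 0.0505. The genes with the largest differences were thus not those with the lowest adjusted p. The spread in this setting still comes from the selected table.

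The arrays of a group parted in different places for different genes. For Tgfb2, Thbs2 and Myl9, MSC replicate 3 stood above the other MSC arrays, by 0.86 to 1.25 for the 4 Tgfb2 probe sets and by more for Thbs2 and Myl9. It was at least 1 above their mean in 5 of the 10 lower member probe sets, and in 4.16% of the 1731 lower probe sets of the table. For Tgfb3, Thbs1 and Thbs2, co-culture replicate 2 lay at least 1 below replicate 1, which held for 4 of the 10 lower member probe sets and 10.2% of the lower probe sets of the table. Part of this spread was common in the table: co-culture replicate 2 was under replicate 1 in 77.5% of its lower probe sets, and in 6 of the 10 here. MSC replicate 3 was the highest MSC array in 48.3% of the lower probe sets, and in 9 of the 10 here. The probe sets of a gene share their target, so these counts are not counts of independent genes.

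**Figure D3:**
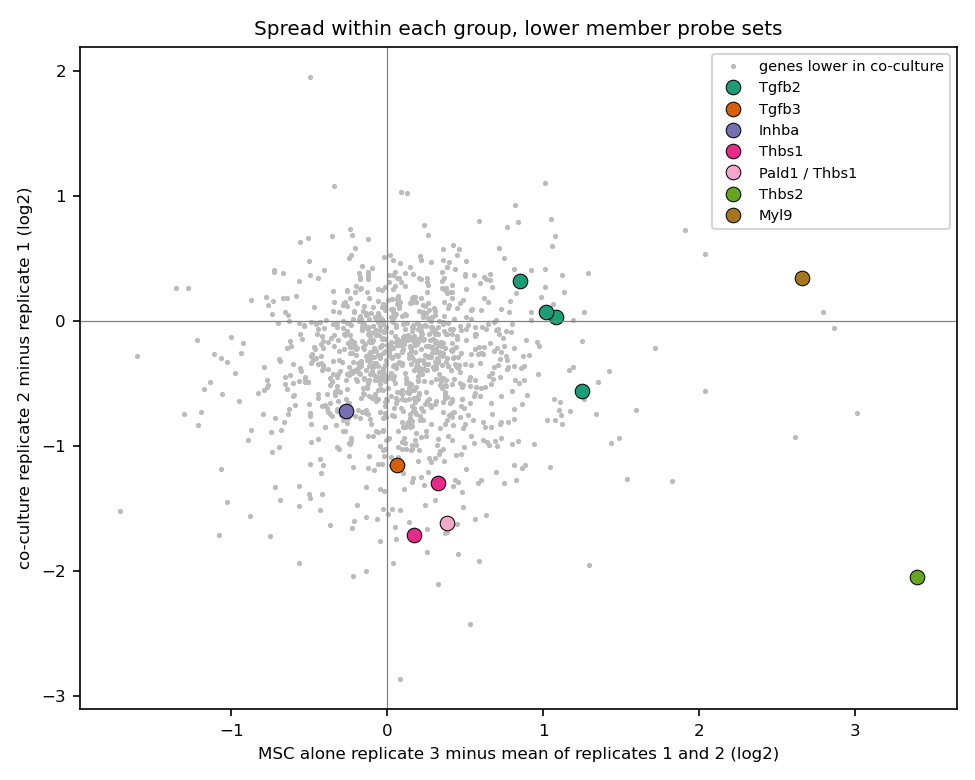
For genes lower in co-culture, the distance of MSC replicate 3 from the mean of the other MSC arrays (horizontal axis, log2) against co-culture replicate 2 minus replicate 1 (vertical axis, log2). Grey points are the 1133 lower genes of the table by their brightest probe set, and coloured points are the lower member probe sets and the one shared with Pald1; Thbs2 lies far out on both axes, Myl9 on the horizontal axis, and Thbs1 and Tgfb3 on the vertical axis.

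Whether the members changed by unequal amounts was examined within each array, as the log2 difference between the brightest probe sets of each of 21 pairs of genes. With 5 arrays the smallest p the exact permutation test (two-sided) gave was 0.2, so no pair could pass 0.05. Among the 15 pairs of lower genes, 7 had groups that did not overlap (46.7%), which is close to the 49.9% of all pairs of lower genes in the table. Thbs1 minus Thbs2 was 4.34 and 4.68 in co-culture, against 3.67, 3.56 and 0.38 in MSC alone, so the difference of Thbs2 between the groups was 1.97 larger than that of Thbs1, which did not pass (exact permutation p 0.2, adjusted 0.323 over the 21 pairs). MSC replicate 3, at 0.38, stood apart from the other MSC arrays in this measure. Tgfb3 minus Thbs1 was -3.89 and -3.34 in co-culture, against -4.26, -4.20 and -4.34 in MSC alone. Its group means were 0.66 apart, less than for Thbs1 minus Thbs2, but its MSC arrays agreed closely (exact permutation p 0.2). Tgfb2 minus Tgfb3 was -1.30 and -0.11 in co-culture, against -1.48, -1.26 and -0.35 in MSC alone, and the groups overlapped. The differences of Tgfb2 and Tgfb3 were 0.32 apart on the log2 scale with the brightest Tgfb2 probe set (exact permutation p 0.6) and 0.96 apart with the dimmest (exact permutation p 0.4), and the groups overlapped in both. The 4 Tgfb2 probe sets, from -3.15 to -1.45, lay on both sides of Tgfb3 at -2.41, so which of the ligand genes fell more depended on the probe set.

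Genes of the same pathway were read from 7 lists that held 197 gene symbols besides the members. A few genes stand under both an older and a newer symbol, such as Ctgf and Ccn2. The list sizes here and below count symbols, so they are somewhat above the number of genes. The table held 41 of these symbols, of which 29 were lower and 12 higher in co-culture (limma adjusted p under 0.05). The other 156 symbols were not analysed here. The share lower was 70.7%, beside 51.7% of all 2190 named genes. The median differences were -1.10 and -0.61. These medians mostly follow the share lower, since no probe set of the table had groups closer than 0.34. The lists were chosen with earlier results of these data known. The lists overlap with one another. Unlike the 41 symbols, the counts and medians of single lists below include the members, which were chosen by name, unless stated.

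Of the list of TGF-beta ligands, receptors and SMADs, 7 of 22 genes were in the table, 4 higher and 3 lower. Without the members Tgfb2, Tgfb3 and Skil, 3 were higher and 1 lower. The median of all 7 was 1.03, the value of Smurf2, which had the smallest difference of the 4 higher genes. Besides Skil, the genes that were higher are also known to act against SMAD signalling. Smurf1 and Smurf2 encode ubiquitin ligases that target SMADs and receptors for degradation, and Tgif1 a SMAD corepressor. Smurf1 read 10.6 and 11.1 in co-culture, against 7.89, 8.84 and 6.99 in MSC alone, and was higher by 2.94 ± 0.53 (SE). Tgif1 read 11.1 and 11.5 in co-culture, against 9.56, 10.0 and 9.35 in MSC alone, and was higher by 1.65 ± 0.25 (SE). Smurf2 was higher by 1.03 ± 0.27 (SE). Ski, the close relative of Skil, went the other way, at 7.76 and 8.13 in co-culture, against 8.90, 8.69 and 8.83 in MSC alone, a difference of -0.87 ± 0.20 (SE). The receptor and SMAD genes of the list were not analysed here.

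Of 38 activin, inhibin and BMP pathway genes 6 were in the table, 2 higher and 4 lower. Without the member Inhba, 2 were higher and 3 lower. Fst encodes follistatin, which binds and neutralises activin. It read 7.43 and 7.28 in co-culture, against 5.73, 6.06 and 6.62 in MSC alone, and was higher by 1.22 ± 0.29 (SE), while the activin subunit gene Inhba was lower. The activin receptor gene Acvr2a was higher by 0.66 ± 0.18 (SE; limma adjusted p 0.0123), a call that missed the threshold when co-culture replicate 2 (adjusted p 0.0535) or MSC replicate 1 (0.0509) was left out. Fstl1, a follistatin-like glycoprotein gene, and Bmpr2, a BMP receptor gene, each had a difference of -1.37, with SE of 0.20 and 0.24.

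Of 30 genes of latent TGF-beta storage and activation 8 were in the table, 7 lower and 1 higher, with a median of -1.21. Without the member Thbs1, 6 were lower and 1 higher. Emilin1 encodes an elastic fibre glycoprotein that binds the TGF-beta precursor. It read 6.69 and 5.13 in co-culture, against 9.20, 8.79 and 9.63 in MSC alone. Its difference was -3.30 ± 0.49 (SE), 9.82-fold lower, or 16.8-fold without co-culture replicate 1 and 5.74-fold without replicate 2; a dimmer probe set differed by -1.29. Ltbp1, whose product tethers the latent complex to the matrix, differed by -1.47 ± 0.21 (SE), and Mfap2, a microfibril gene, by -1.22 ± 0.22 (SE). The gene that was higher was Plau, encoding urokinase, which makes plasmin from plasminogen, by 2.70 ± 0.32 (SE), with 1.75 in its other probe set.

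Of 19 thrombospondin family and receptor genes 4 were in the table and all 4 were lower. Besides Thbs1 and Thbs2 these were Sdc1, a heparan sulphate proteoglycan gene, with a difference of -1.45 ± 0.23 (SE), and Lrp1, an endocytic receptor gene that takes up thrombospondins, with -1.32 ± 0.19 (SE; -0.69 in its other probe set).

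Of 34 SMAD-responsive genes 12 were in the table, 10 lower and 2 higher, with a median of -2.00. Without the members Thbs1, Inhba and Skil, 8 were lower and 1 higher. Among the lower genes other than the members, the largest differences by brightest probe set were in the collagen chain genes Col3a1 (-4.67 ± 0.24, SE), Col1a1 (-3.94 ± 0.27, SE) and Col5a1 (-2.64 ± 0.21, SE). Their other probe sets had larger differences, -6.35 for Col3a1, -5.13 for Col1a1, and -3.41 and -4.03 for Col5a1. The higher genes were Skil and Lif, a cytokine gene, which differed by 3.08 ± 0.67 (SE). Lif was 8.45-fold higher, and 5.38-fold without MSC replicate 3.

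Of 49 contractile and SRF target genes 9 were in the table, 7 lower and 2 higher, with a median of -0.90, and Myl9 at -3.55 had the lowest difference of the 9. Mylk encodes the kinase that phosphorylates the light chain made from Myl9. It read 6.48 and 4.61 in co-culture, against 8.98, 8.51 and 9.20 in MSC alone, a difference of -3.36 ± 0.54 (SE). It was 10.2-fold lower, 19.5-fold without co-culture replicate 1 and 5.36-fold without replicate 2. Its other probe set had a smaller difference, -2.24 ± 0.32 (SE). The arrays of MSC alone spanned 0.69 in Mylk and 3.03 in Myl9. MSC replicate 3 was the highest MSC array in both. It lay 0.45 above the mean of the other MSC arrays in Mylk, against 2.67 in Myl9. The 6 lower genes of this list other than Myl9 averaged 8.88 and 8.20 on the co-culture arrays, against 9.95, 9.75 and 10.0 on MSC replicates 1, 2 and 3. The heavy chain genes of non-muscle myosin went opposite ways, with Myh9 higher by 1.74 ± 0.28 (SE) and Myh10 differing by -1.12 ± 0.26 (SE). Tpm1, a tropomyosin gene, differed by -1.12 ± 0.28 (SE). Ppp1r12a, a myosin phosphatase subunit gene named here after its values were seen, differed by -0.90 in its brightest probe set and 0.80 in another.

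The list of YAP and TEAD target genes also held genes for the pathway's own factors, among them Wwtr1 and Tead4. Of its 31 symbols 9 were in the table, 6 lower and 3 higher, with a median of -1.64. Without the member Tgfb2, 5 were lower and 3 higher. The transcription factor gene Tead4 was higher by 2.31 ± 0.35 (SE), and Amotl2, an angiomotin-like gene, differed by -1.70 ± 0.35 (SE). Rbms3, an RNA-binding protein gene, differed by -1.82 ± 0.31 (SE) in its brightest probe set and by -3.72, -2.84 and -1.63 in the others. Asap1, an Arf GTPase regulator gene, differed by -2.36 ± 0.53 (SE). The fall of Asap1 was 5.14-fold, or 9.34-fold without co-culture replicate 1 and 2.83-fold without replicate 2.

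**Figure D4:**
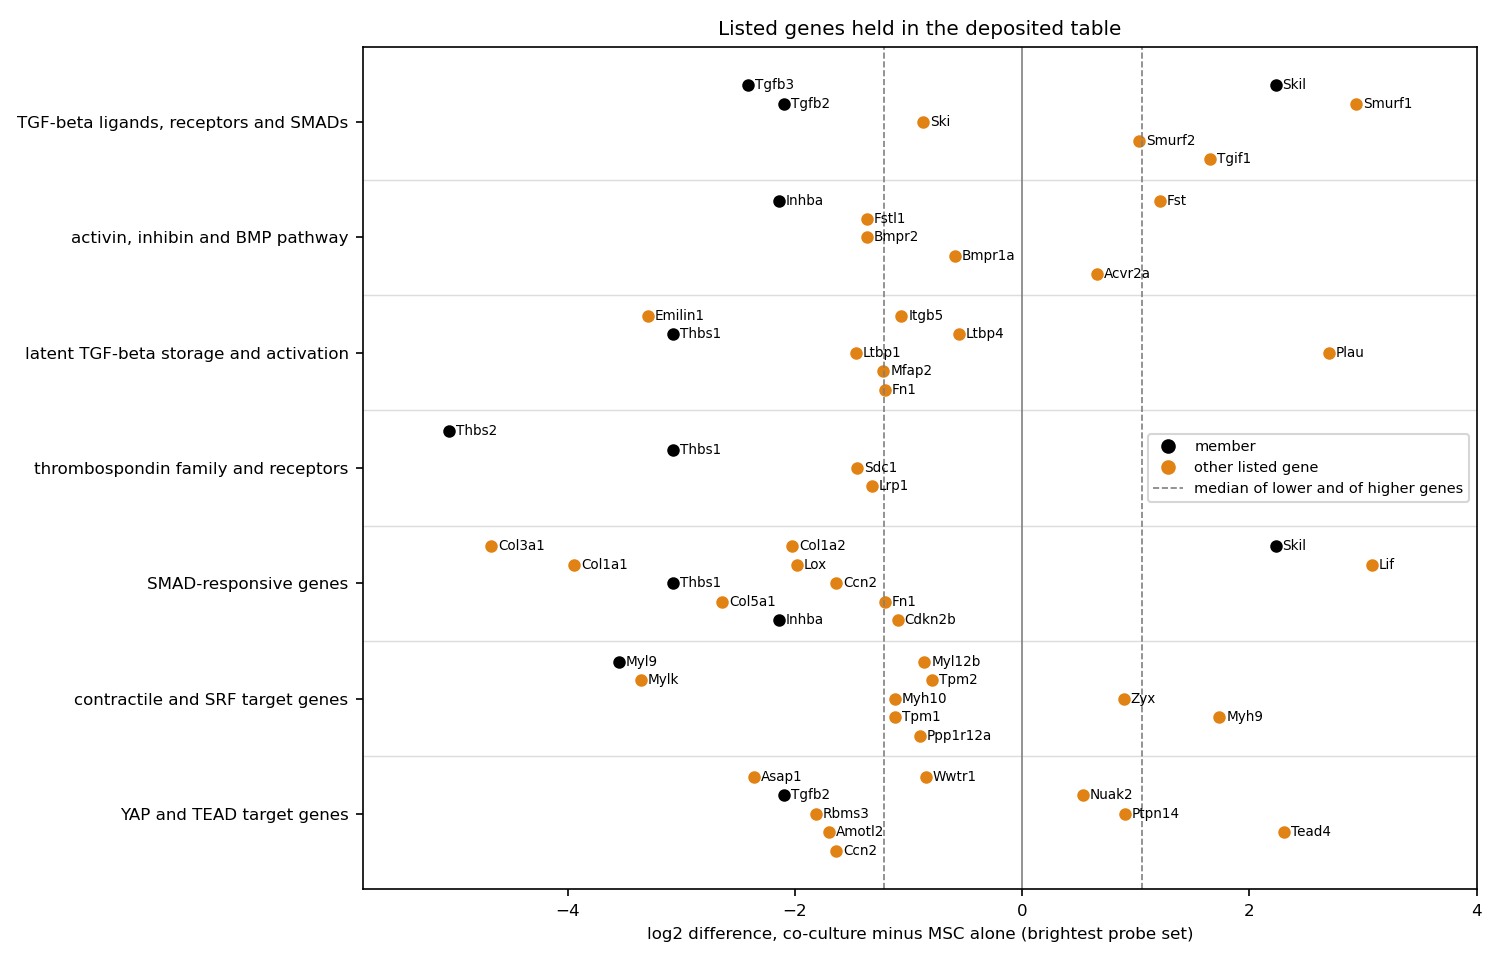
Log2 difference of co-culture minus MSC alone (horizontal axis, brightest probe set of each gene) for the listed genes held in the table, 1 band per list, with members in black and other genes in orange. Dashed lines are the medians of all lower (-1.22) and all higher (1.05) genes of the table; all 7 members lie outside them, and the genes right of 0 in the top band are Skil, Smurf1, Smurf2 and Tgif1.

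The gene of the table with the profile most like each member was found as the smallest root-mean-square distance over the 5 arrays, each profile taken as its difference from its mean in MSC alone. The likeness is a description, since every gene was selected for the same contrast. Tgfb2 was closest to Adamts4, an aggrecan-cleaving protease gene (distance 0.13), which shared its high MSC replicate 3, at 6.04 and 5.88 in co-culture against 7.65, 7.51 and 8.83 in MSC alone. Tgfb3 was closest to Ift80 (0.14), Inhba to Ccdc122 (0.10) and Thbs1 to Slco1a5 (0.20). Skil was closest to Tead4 (0.14), at 6.46 and 7.59 in co-culture against 4.53, 4.95 and 4.68 in MSC alone. The distance was larger for the 2 genes with the widest spread, but it is not scaled to the size of a profile. Thbs2 was closest to Mgp, the matrix Gla protein gene (0.50), at 6.74 and 6.001 in co-culture against 10.9, 10.7 and 13.8 in MSC alone. Myl9 was closest to Cxcl12, the stromal chemokine gene (0.44), at 5.18 and 4.96 in co-culture against 8.05, 7.99 and 9.74 in MSC alone. Thbs2, Myl9 and their nearest genes all had MSC replicate 3 as the highest array. The distance includes that array, so the search itself favours a gene that shares a high value there, as also for Adamts4.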

How the data were processed

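Expression was measured in mouse bone marrow MSC on 5 arrays, grouped by sample title; the labels give no batch or date. The authors deposited log2 probe set values made with RMA (background correction, quantile normalisation and summary of probes), per the submitters' processing notes; the version and the rule that kept 3373 probe sets are not given in the sources used here. RMA gives no detection call and compresses low values. Gene symbols came from the platform's annotation: 3013 probe sets had 1 symbol, 69 several and 291 none; 3010 were found in RefSeq GRCm38.p6, which changed 0 symbols. A gene was represented by its brightest probe set (highest mean over 5 arrays).

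All 3373 probe sets were fitted with limma 3.58.1 (R 4.3.3; lmFit and eBayes, no covariate, no filter, two-sided, Benjamini-Hochberg, threshold 0.05), which was tested on simulated data. Folds are 2 to the power of the log2 difference, group values are of single arrays, and SE is limma's moderated standard error. Selection for separated groups favours small errors and large differences. The number of arrays limits the precision. Pairs of members were compared by exact permutation (scipy 1.17.1). Members and lists were chosen with earlier results of these data known. Named genes are the members, up to 4 genes of each pathway list with the largest difference, the gene nearest in profile to each member, and listed markers. Alternatives covered scaling, spread, dim probe sets, number of tests, probe set choice, the replicate number and each array left out.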

Additional observations from a re-analysis of the deposited data

How the results depend on the processing

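Centring each array on its median moved every log2 difference up by 0.16 and quantile normalisation over the table moved the median by 0.10; none of the 48 listed or member genes in the table changed direction under either. Adjusting over 15 times the number of probe sets left 210 lower and 205 higher probe sets, and 6 lower and 1 higher of the listed genes. Under it the member probe sets that no longer passed in limma were 2 of Tgfb2 (-2.09 with adjusted p 0.0716, and -1.45 with 0.115), Skil (2.23, 0.0505), Thbs1 (-3.07, 0.0571), the probe set shared with Pald1 (-2.52, 0.0802), Thbs2 (-5.04, 0.116) and Myl9 (-3.55, 0.122). By construction that setting changes the number of tests and no difference. Without moderation of the spread Thbs2 (-5.04, adjusted p 0.0555) and Myl9 (-3.55, adjusted p 0.0581) missed the threshold in limma's linear model. This setting uses each probe set's own spread and changes no difference. The SD in MSC alone was 1.96 for Thbs2 and 1.58 for Myl9, the largest of the member probe sets. Why these arrays spread was not tested. In the other 132 combinations of a member probe set and an alternative the direction and the side of the threshold stayed. Tgfb2 probe sets 1450922_a_at, 1450923_at and 1438303_at were among the dimmest 25% of the table, so the alternative without these could not check them. Leaving out each array in turn gave between 1619 and 1730 lower and between 1497 and 1641 higher probe sets; where 1 co-culture array is left, it is assumed to vary like the other group. Replicate numbers are shared by the groups, but no label says that they mark a common culture: deviations of same-numbered arrays correlated at 0.22 and 0.32, over 2 pairs. With the replicate number as a block, 1729 lower and 1636 higher probe sets were called and no member's call changed, with Thbs2 at -3.91 and Myl9 at -2.66, the values without MSC replicate 3, which has no partner. With 5 arrays and no detection calls, differences that end near the lowest values of the table are the least certain in size.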
